A study of Mus musculus with 2 samples.

Results

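Transcripts of 10 genes that receive, limit or carry out the Wnt signal were followed in organoids grown from normal mouse urothelium, the lining of the bladder. The genes were taken by name from the 31053 gene identifiers of the matrices: the receptors Lgr4, Lgr6 and Fzd6, the membrane ubiquitin ligases Rnf43 and Znrf3, the feedback gene Axin2, and the nuclear factors Tcf7, Lef1, Tcf7l1 and Tcf7l2. All 10 were found by symbol, each under a single identifier. The organoids came from wild-type (WT) C57BL/6 mice aged 8 to 10 weeks and were profiled by droplet-based 3′ single-cell RNA sequencing. Proliferative organoids (NMU-O-P, here P) were kept in complete medium. Differentiated organoids (NMU-O-D, here D) were moved to a medium without the ligand WNT3A, its enhancer RSPO1, the growth factor EGF, the BMP antagonist Noggin and LY2157299, which blocks TGF-β receptor signalling. In the study's protocol a week in complete medium precedes another week in either medium, and cultures are started from urothelial digests without sorting. All 5 additives were withdrawn together, so that the effects of WNT3A and RSPO1 cannot be told apart from those of the others. Each medium was represented by 1 library. No test between media was therefore possible, and all intervals below are 95% intervals that cover counting error only.

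In Wnt signalling, a Wnt ligand binds a Frizzled receptor and an LRP co-receptor at the cell surface, which blocks the complex that destroys β-catenin. β-catenin then enters the nucleus and joins a factor of the TCF/LEF family on target genes such as Axin2, a scaffold of the destruction complex and so a negative feedback. RNF43 and ZNRF3 remove Frizzled receptors from the membrane, and R-spondins such as RSPO1, bound to LGR4, LGR5 or LGR6, take these ligases out of action.

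The kept cells, those with over 800 detected genes and at most 12% mitochondrial transcripts, numbered 6818 in P and 4896 in D. They held 26681469 and 20305621 unique molecular identifiers (UMIs), each of which marks a captured RNA molecule. Median depth was 3405.5 UMIs per cell in P and 3227.5 in D, and 6 cell barcodes were kept in both libraries. Levels are given as UMIs per 1000000 UMIs of the same cells (CPM), a scale relative to all RNA counted, on which fewer cells of a type and less RNA per cell cannot be told apart. The part of UMIs from ribosomal protein genes was 37.2% in P but 21.2% in D. On the CPM scale the median gene stood higher in D by 0.42 on the log2 scale, and ratios are given again with this shift removed where that changes a call.

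The promoters of 3 contrasting members are shown first: Axin2, the feedback gene whose distribution over cells differed most between the libraries, Lgr4, the receptor with the largest ratio of D to P, and a downstream start of Tcf7l2 that holds a TCF/LEF motif. Windows run from 250 bases before to 50 bases after an annotated start (RefSeq, GRCm38.p6). At least 1 window was listed for 8 of the 10 genes, 14 windows in all, and none for Fzd6 and Znrf3. The letters searched on both strands were CTTTGAA or else CTTTGAT, besides CTTTGTA or else CTTTGTT. A match stood in 2 of the 14 windows, 1 of Lef1 and 1 of Tcf7l2, and in 16.9% of all 32851 windows. Capitals mark the match. The windows are chr11:108920099-108920398 for Axin2, chr2:109917397-109917696 for Lgr4 and chr19:55895071-55895370 for Tcf7l2, all on the plus strand.
Axin2: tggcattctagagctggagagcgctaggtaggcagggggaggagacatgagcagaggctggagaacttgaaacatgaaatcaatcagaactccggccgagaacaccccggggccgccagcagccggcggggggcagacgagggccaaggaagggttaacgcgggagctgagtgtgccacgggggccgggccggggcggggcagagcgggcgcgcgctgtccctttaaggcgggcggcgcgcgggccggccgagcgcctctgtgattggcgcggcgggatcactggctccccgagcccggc
Lgr4: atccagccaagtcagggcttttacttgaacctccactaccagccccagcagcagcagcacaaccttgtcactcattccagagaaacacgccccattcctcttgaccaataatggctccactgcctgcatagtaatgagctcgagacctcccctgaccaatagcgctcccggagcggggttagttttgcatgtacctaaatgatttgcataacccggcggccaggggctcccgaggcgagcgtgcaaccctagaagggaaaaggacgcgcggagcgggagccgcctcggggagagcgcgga
Tcf7l2: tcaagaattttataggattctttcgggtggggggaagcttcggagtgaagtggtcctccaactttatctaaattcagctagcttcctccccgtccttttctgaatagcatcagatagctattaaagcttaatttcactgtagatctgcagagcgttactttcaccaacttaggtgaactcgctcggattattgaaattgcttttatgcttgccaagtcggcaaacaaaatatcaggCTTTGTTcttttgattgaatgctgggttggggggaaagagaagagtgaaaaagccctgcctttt
The Axin2 and Lgr4 windows held none of these letters, and the Tcf7l2 match, CTTTGTT, began at base 237 of its window. The counts are 3′ tags and do not show which start a transcript came from.

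Of the 10 genes, 8 had at least 20 UMIs over both libraries, the minimum set for a ratio, and 7 had at least 100, the minimum for a call. Among these 7, Lgr4, Fzd6 and Tcf7l1 (3 genes) exceeded their P level at least 2-fold in D, and 0 stood at least 2-fold lower there. Over all 10719 genes with this depth, these shares were 13.5% and 4.73%. With the median shift removed, Lgr4 and Fzd6 remained past 2-fold, 2 of the 7, against 5.64% of all genes higher and 8.65% lower. The median log2 ratio of the 8 genes was 0.68, beside 0.41 over all genes tested.

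**Figure D1:**
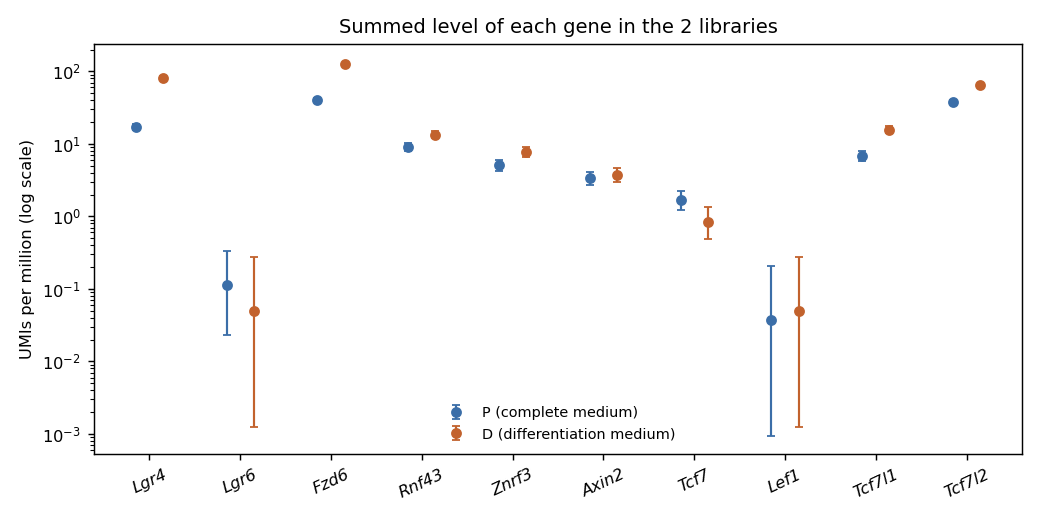
Summed level of each gene in P (blue) and D (orange), in CPM on a log axis, with exact Poisson 95% intervals. The intervals of the libraries lie apart for Lgr4, Fzd6, Tcf7l1, Tcf7l2, Rnf43 and Znrf3, and overlap for Axin2 (3.37 in P and 3.74 in D) and Tcf7. They reach below 1 CPM for Lgr6 and Lef1, and in D for Tcf7.

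Lgr4 carried nearly all of the transcripts for R-spondin receptors. Lgr4 (chr2:109917647-110014257, plus strand, GRCm38) was counted 453 times in P, or 17.0 CPM (15.5 to 18.6), and 1661 times in D, or 81.8 CPM (77.9 to 85.8). The level in D was thus 4.82-fold that in P (4.34 to 5.36), the highest ratio of the 8 genes, and 1.85 on the log2 scale after the median shift was removed. Lgr6 was found as 3 UMIs in P and 1 UMI in D, too few for a ratio. With Lgr5 included, Lgr4 made up 97.4% of the UMIs of the 3 receptors in P (95.5 to 98.7%) and 99.8% in D.

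Fzd6, a Frizzled receptor known chiefly for its part in planar cell polarity, was also higher in D. Fzd6 (chr15:39006034-39038188, plus strand) was counted 1067 times in P and 2579 times in D, or 40.0 CPM (37.6 to 42.5) and 127 CPM (122 to 132). Its level in D was 3.18-fold that in P (2.96 to 3.41). The share of Fzd6 among the UMIs of all Frizzled genes, which does not depend on the scaling of the libraries, was 44.9% in P (42.9 to 46.9%) and 54.8% in D (53.3 to 56.2%).

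The ligases that act against Frizzled receptors differed less between media. Rnf43 (chr11:87662722-87735539, plus strand) was counted 245 times in P and 273 times in D, 9.18 and 13.4 CPM, a ratio of 1.46 (1.23 to 1.75). Znrf3 (chr11:5276324-5444847, minus strand) was counted 135 and 158 times, 5.06 and 7.78 CPM, a ratio of 1.54 (1.21 to 1.95). Neither ratio reached 2-fold, and on the log2 scale 0.13 and 0.20 were left with the median shift removed. The balance of receptor and ligase transcripts therefore differed between the libraries. For each UMI of Rnf43 or Znrf3 there were 1.19 UMIs of Lgr4 in P (1.04 to 1.37) and 3.85 in D (3.46 to 4.29). The annotated gene 1110028F11Rik overlaps Rnf43 on the same strand, which leaves the counts of Rnf43 uncertain.

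Axin2, the feedback gene often used as a readout of β-catenin, was low in both libraries. Axin2 (chr11:108920349-108950783, plus strand) was counted 90 times in P and 76 times in D, 3.37 CPM (2.71 to 4.15) and 3.74 CPM (2.95 to 4.68). The ratio of D to P was 1.11 (0.807 to 1.52), an interval that holds both a lower and a higher level. Its sign turned with the scaling, since the log2 ratio was 0.15 on the CPM scale, -0.27 with the median shift removed and -0.18 on counts without mitochondrial and ribosomal protein genes. Set against Axin1, its paralogue that is not a standard Wnt target, Axin2 had 0.277 UMIs per UMI of Axin1 in P (0.217 to 0.351) and 0.178 in D (0.138 to 0.228). The intervals overlapped, which does not settle whether the values differed, and no interval of their difference is given. Axin1 itself was counted 325 times in P and 426 times in D, 12.2 and 20.98 CPM, a ratio of 1.72 (1.49 to 1.996). The point value of Axin2 to Axin1 was thus lower in D, while that of Axin2 on the CPM scale was not.

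The 4 nuclear factors did not follow 1 pattern. Tcf7l2 (chr19:55741820-55933654, plus strand), the family member that joins β-catenin in many epithelia, was counted 1024 times in P and 1306 times in D, 38.4 and 64.3 CPM, a ratio of 1.68 (1.54 to 1.82). Tcf7l1 (chr6:72626378-72789254, minus strand), known mostly as a repressor, was counted 182 and 319 times, 6.82 and 15.7 CPM, a ratio of 2.30 (1.91 to 2.78) that fell short of 2-fold with the median shift removed (0.78 on the log2 scale). Tcf7 (chr11:52252371-52283014, minus strand) was counted 45 times in P and 17 times in D, 1.69 and 0.837 CPM, a ratio of 0.496 (0.266 to 0.884) with too few UMIs for a call. Tcf7 was the only one of the 8 genes with a ratio below 1 on the CPM scale. Lef1 (chr3:131110471-131224356, plus strand) was found as 1 UMI in each library.

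Within the TCF/LEF family, shares do not depend on the scaling of the libraries. Tcf7l2 held 81.8% of the family's UMIs in P (79.5 to 83.9%) and 79.5% in D (77.5 to 81.4%), with overlapping intervals. Tcf7l1 held 14.5% in P (12.6 to 16.6%) and 19.4% in D (17.5 to 21.4%), and Tcf7 held 3.59% (2.63 to 4.78%) and 1.03% (0.604 to 1.65%). Their intervals did not overlap between the libraries. Each of the 4 genes is overlapped by another annotated gene on the same strand, such as Gm26551 for Tcf7 and Ppnr for Tcf7l2, which leaves their counts uncertain.

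Single cells held few of these transcripts. After each cell was thinned to 2100 UMIs, which left 6638 cells of P and 4417 of D and dropped 180 and 479 shallower ones, 77.1% of P cells and 53.4% of D cells had no UMI of any member. An Lgr4 UMI was seen in 3.60% of thinned P cells (3.16 to 4.08%) and 15.8% of thinned D cells (14.7 to 16.9%), and in 6.32% and 26.5% of cells before thinning. For Fzd6 the shares were 8.36% and 22.8% thinned, and 13.7% and 35.2% before. For Axin2 they were 0.693% (0.508 to 0.923%) and 0.815% (0.571 to 1.13%) thinned, and 1.28% and 1.51% before. No cell type in these organoids was known to lack the genes, so no background share could be set for them. The lowest thinned share over the clusters was 2.70% for Lgr4 (cluster P1), 3.48% for Fzd6 (cluster P1) and 0.0818% for Axin2 (cluster P1), and how much of these came from free RNA was not tested.

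To follow basal state, cells were clustered per library with the 10 genes left out of the clustering, which gave 4 clusters in P and 3 in D. Clusters P0 (2603 cells), P3 (339 cells) and D1 (1310 cells) had at least 5 of 7 basal markers (Krt5, Krt14, Trp63, Itga6, Itgb4, Col17a1, Cd44) above the rest of their library. P3 was the cycling cluster, with 85.2% of its thinned cells holding UMIs of at least 2 of 12 proliferation genes. Cluster P1 (2462 cells) was led by Sprr3 and Cnfn, P2 (1414 cells) by Fmo2 and Mmp7, D0 (2720 cells) by Krt1 and Reg1, and D2 (866 cells) had Upk3a and Upk3b among its leading genes. The leading gene of D1 was Acta2, a smooth muscle marker, so that D1 is given by number and not by a cell type name. None of the 7 basal markers was among the top 10 genes of any cluster. D1 had 6 of the 7 above the rest of D, as P3 had in P, and P0 had 5. Summed basal markers were highest in D1, at 16834 CPM, against 8486 in P0 and 7365 in P3. Summed fibroblast markers reached 233 CPM in D1, with Col1a2 and Pdgfra at 0, against 24.6 CPM in D0, 8.56 in D2 and at most 4.40 in a cluster of P. Over all kept cells of D, Dcn had 1234 fibroblast marker UMIs, beside 19 of Col3a1, 10 of Col1a1, 6 of Pdgfra, 1 of Lum and 0 of Col1a2. Summed smooth muscle markers reached 192 CPM in D1, with Myh11 and Des at 0. Over all kept cells of D, Acta2 had 837 UMIs, beside 35 of Tagln, 3 of Cnn1 and 1 of Actg2. The fibroblast and smooth muscle sums thus each rested mostly on 1 marker. The part of these markers in the levels of the members in D1 was not tested beyond the removal of the cells that held such a UMI (76 in P and 871 in D). After this removal the number of members past 2-fold was again 3 and the log2 ratio of Fzd6 was 1.50 in place of 1.67. The share of all genes past 2-fold is not given for the remaining cells.

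Lgr4 and Fzd6 were highest in D1. Lgr4 stood at 133 CPM in D1 (122 to 145), 76.4 in D0 and 52.9 in D2, and at 23.5, 13.4, 15.4 and 16.9 CPM in P0, P1, P2 and P3. All 3 clusters of D were thus above all 4 of P, and the intervals of each D cluster and the next in order did not overlap. For Fzd6 the levels were 217 CPM in D1 (203 to 231), 127 in D0 and 57.1 in D2, and 68.7, 20.7, 43.7 and 33.7 CPM in P0 to P3. Here the libraries overlapped, since P0 stood above D2, with a log2 difference of 0.27 (0.061 to 0.48). The cycling cluster P3 held less Fzd6 than P0, with a log2 ratio of -1.03 (-1.47 to -0.61).

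**Figure D2:**
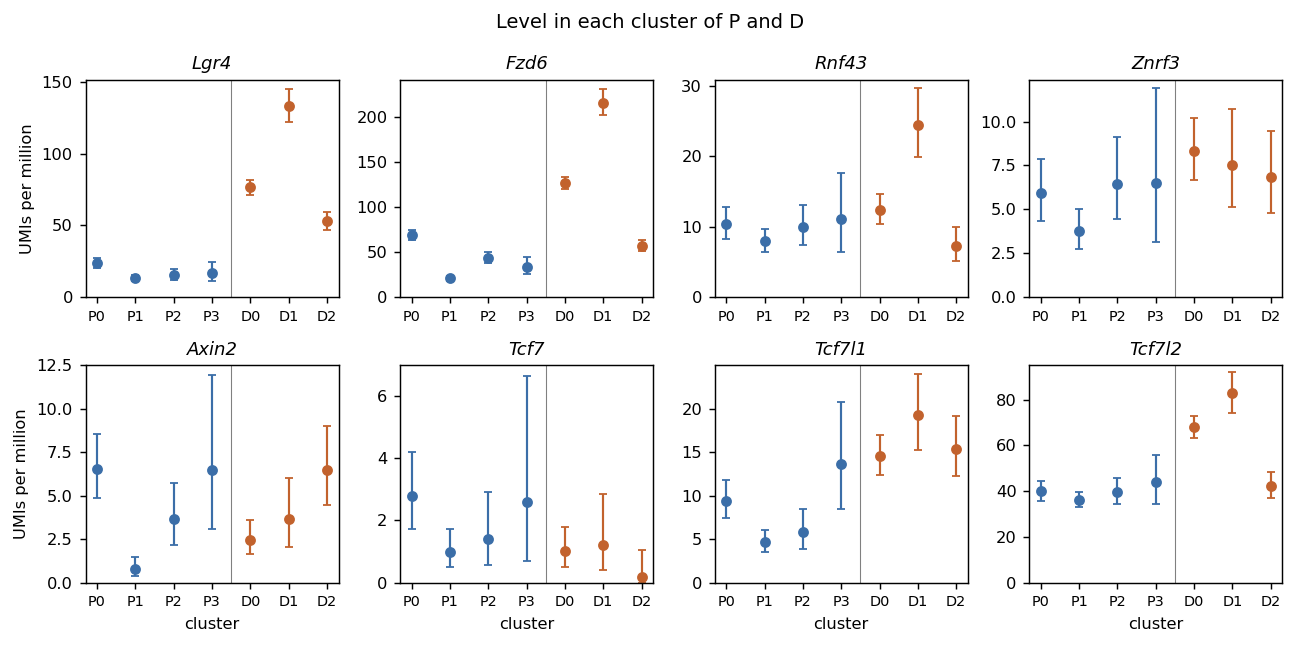
Level of each of the 8 genes in the 4 clusters of P (blue) and the 3 of D (orange), in CPM from 0, with exact Poisson 95% intervals. Lgr4 and Fzd6 peak in D1 at 133 and 217, while Axin2 is lowest in P1 at 0.817 and highest in P0, P3 and D2 at about the same level.

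The ligases parted from each other in D1. Rnf43 stood at 24.3 CPM in D1 (19.8 to 29.6), 12.3 in D0 and 7.23 in D2, and between 7.92 and 11.0 in the clusters of P, where neighbours in the order did not differ beyond counting error. Znrf3 lay between 6.85 and 8.32 CPM in the clusters of D and between 3.76 and 6.49 in those of P, and only the step from P0 to P1, the lowest, exceeded counting error. Tcf7l2 was highest in D1 and D0, at 82.8 and 67.9 CPM, and the other 5 clusters, D2 included at 42.4, lay between 36.2 and 44.1. Tcf7l1 ran from 19.2 CPM in D1 to 4.65 in P1, and P3 with 13.6 stood next to D0 with 14.5. Tcf7 had at most 22 UMIs in any cluster, and no neighbours in its order differed beyond counting error.

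Axin2 had another order than the other members. P0, P3 and D2 stood side by side at 6.54 CPM (4.89 to 8.58), 6.49 (3.11 to 11.9) and 6.47 (4.48 to 9.04), from 52, 10 and 34 UMIs. D1 and P2 followed at 3.65 and 3.64 CPM, then D0 at 2.47 and P1 at 0.817 (0.392 to 1.50, 10 UMIs). Only the last step, D0 over P1, exceeded counting error. The highest cluster of D for Axin2 was therefore D2, the one with uroplakin genes among its leading genes, whereas for Lgr4, Fzd6, Rnf43, Tcf7l1 and Tcf7l2 it was D1.

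Within P, the clusters with raised basal markers were compared with the rest of the library. Among 6 members with at least 100 UMIs, Fzd6 (2.31-fold, 2.04 to 2.61) and Tcf7l1 (2.02-fold, 1.50 to 2.74) were at least 2-fold higher in P0 and P3 than in P1 and P2, beside 8.25% of 9486 genes. Tcf7l1 lay at the limit and its interval held values below 2-fold. Axin2 had 62 UMIs in P0 and P3 and 28 in P1 and P2, 6.53 against 1.63 CPM, a ratio of 4.01 (2.53 to 6.51) with fewer UMIs than a call required. Lgr4 differed by 1.61-fold (1.33 to 1.94), Tcf7 by 2.48-fold (1.32 to 4.74, 45 UMIs), and the intervals of Rnf43, Znrf3 and Tcf7l2 held 1. With the median shift of this comparison removed, Tcf7l1 fell short of 2-fold (0.86 on the log2 scale) and Fzd6 remained, 1 of the 6, beside 6.43% of genes. The count of 2 was also sensitive to the choice of cells. It was 1 without P3 or without cells with a stromal marker UMI, and 0 at a finer clustering. The share of all genes is not given for these choices.

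Within D, Rnf43 (2.28-fold, 1.76 to 2.93) and Fzd6 (2.08-fold, 1.91 to 2.25) were at least 2-fold higher in D1 than in D0 and D2, 2 of 6 members with at least 100 UMIs, beside 6.05% of 9398 genes. With the median shift removed, Fzd6 fell short (0.89 on the log2 scale) and Rnf43 remained (1.02), 1 of the 6, beside 4.87% of genes. Lgr4 lay close to that limit, at 1.94-fold (1.74 to 2.15). Axin2 showed no such difference, with 15 UMIs in D1 and 61 in D0 and D2, 3.65 against 3.77 CPM, a ratio of 0.969 (0.512 to 1.73). Znrf3 likewise had 7.55 against 7.84 CPM, a ratio of 0.962 (0.628 to 1.43).

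The ratio of D to P was then set out by basal state. D1 was compared with P0 and P3, and D0 and D2 with P1 and P2. These sets were not matched. Summed basal markers were 16834 CPM in D1 and 8304 in P0 and P3, and 6125 in D0 and D2 and 4761 in P1 and P2. Of thinned cells, 85.2% were cycling in P3 and 1.35% in D1. A response to the medium and a difference in the cells compared cannot be told apart. For Axin2 the directions were opposite. Its level in D1, 3.65 CPM, was 0.559-fold that in P0 and P3 (0.295 to 0.994), and its level in D0 and D2, 3.77 CPM, was 2.31-fold that in P1 and P2 (1.46 to 3.76). On the log2 scale the difference between these ratios was -2.05 (-3.09 to -1.01, an approximate interval from the counts). The near equality of Axin2 over all cells, 3.37 and 3.74 CPM, thus held a lower level in one set of clusters and a higher level in the other, also with the median shift removed (-1.33 and 0.78 on the log2 scale). The second set pooled unlike clusters: D2 stood at 6.47 CPM and P1 at 0.817, whereas D0 at 2.47 lay below P2 at 3.64, with overlapping intervals. Against Axin1, Axin2 had 0.512 UMIs per UMI in P0 and P3 (0.371 to 0.702) and 0.152 in D1 (0.0817 to 0.262), and 0.137 in P1 and P2 and 0.187 in D0 and D2, whose intervals overlapped. The counts were low, with 15 UMIs in D1, and the finer clustering gave a log2 ratio of 1.16 in place of 2.004 for basal clusters over the rest of P.

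**Figure D3:**
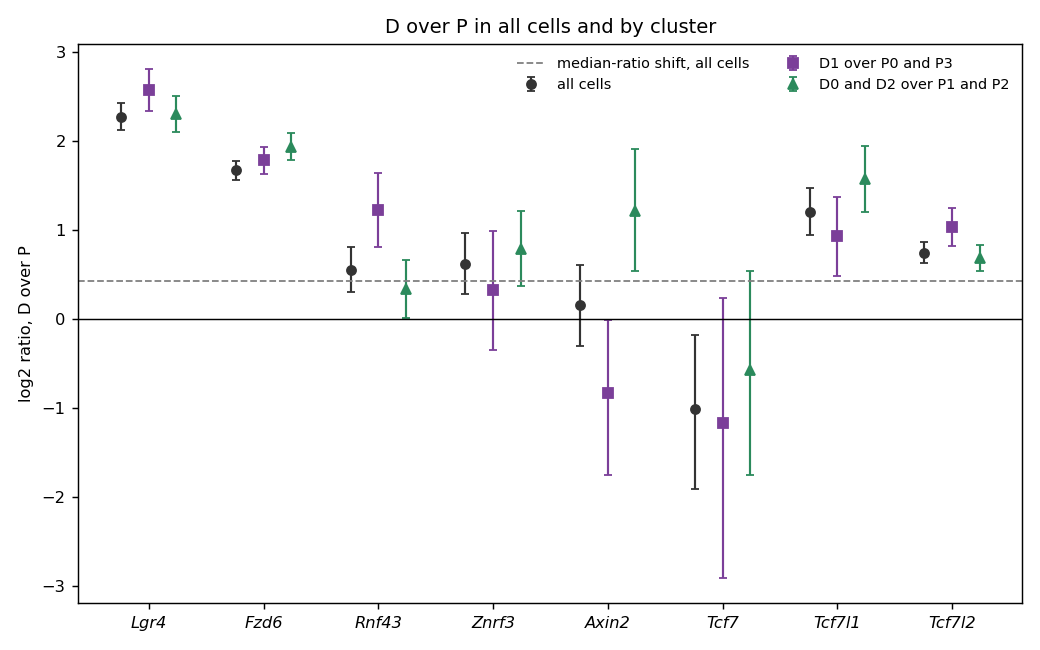
log2 ratio of D to P for the 8 genes over all cells (black), D1 over P0 and P3 (purple) and D0 and D2 over P1 and P2 (green), with 95% intervals from the counts and a dashed line at the median-ratio shift of 0.42. Axin2 lies on opposite sides of 0 in the purple and green comparisons (-0.84 and 1.21), and Lgr4 and Fzd6 lie above 1 in all 3.

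On the CPM scale, Axin2 was the only one of the 8 genes whose ratio was below 1 in one set of clusters and above 1 in the other. With the median shift removed, Rnf43 (0.73 and -0.10 on the log2 scale) and Znrf3 (-0.16 and 0.36) also had opposite signs. In D1 over P0 and P3, Lgr4 (5.93-fold, 5.05 to 6.98), Fzd6 (3.44-fold), Rnf43 (2.33-fold, 1.75 to 3.11) and Tcf7l2 (2.04-fold, 1.76 to 2.37) were at least 2-fold higher, 4 of 5 members with enough UMIs, beside 14.4% of 8381 genes. In D0 and D2 over P1 and P2, Lgr4 (4.93-fold), Fzd6 (3.82-fold) and Tcf7l1 (2.96-fold, 2.31 to 3.84) were, 3 of 6 members, beside 14.8% of 9980 genes. With the median shift removed, the first count was 2 beside 4.75% of genes, since Rnf43 (0.73 on the log2 scale) and Tcf7l2 (0.54) fell short, and the second was 3 beside 5.88%. The Rnf43 ratio differed between the 2 sets of clusters by 0.89 on the log2 scale (0.38 to 1.40), and that of Tcf7l2 by 0.35 (0.091 to 0.60), both larger in D1 over P0 and P3. The Tcf7l1 ratio differed by -0.64 (-1.20 to -0.083), larger in D0 and D2 over P1 and P2. For Lgr4, Fzd6, Znrf3 and Tcf7 the interval of the difference held 0.

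The same comparison was made without clusters, by a basal score, the mean log-normalized level of the 7 basal markers in each cell, divided into lower, middle and upper ranges of equal cell number. These are ranges and not cell types, and 447 cells of P and 313 of D lay within 0.1 SD of the upper cut. Of the upper range, 82.8% of cells in P belonged to P0 or P3 and 64.5% in D to D1. Luminal markers had a median of 0 UMIs per cell in the upper range of both libraries, and squamous markers 0 in P and 1 in D.

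In P, Axin2 stood at 1.05 CPM (0.503 to 1.93) in the lower, 2.86 (1.87 to 4.19) in the middle and 6.70 (5.03 to 8.74) in the upper range. In D the levels were 4.97 (3.40 to 7.02), 2.65 (1.62 to 4.09) and 3.80 CPM (2.43 to 5.65), with no order beyond counting error between the lower and upper ranges. D over P was therefore 2.24 on the log2 scale in the lower range (1.18 to 3.43), -0.11 in the middle (-1.03 to 0.79) and -0.82 in the upper (-1.58 to -0.10). Fzd6 went up with the score in both libraries, from 19.5 through 39.6 to 64.6 CPM in P and from 63.0 through 122 to 198 CPM in D, and its log2 ratio of D to P stayed between 1.61 and 1.69. Lgr4 ran from 11.5 to 22.3 CPM in P and from 57.1 to 117 CPM in D, with ratios between 2.04 and 2.39. Tcf7l1 ran from 4.20 to 9.30 CPM and from 10.9 to 19.8 CPM.

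**Figure D4:**
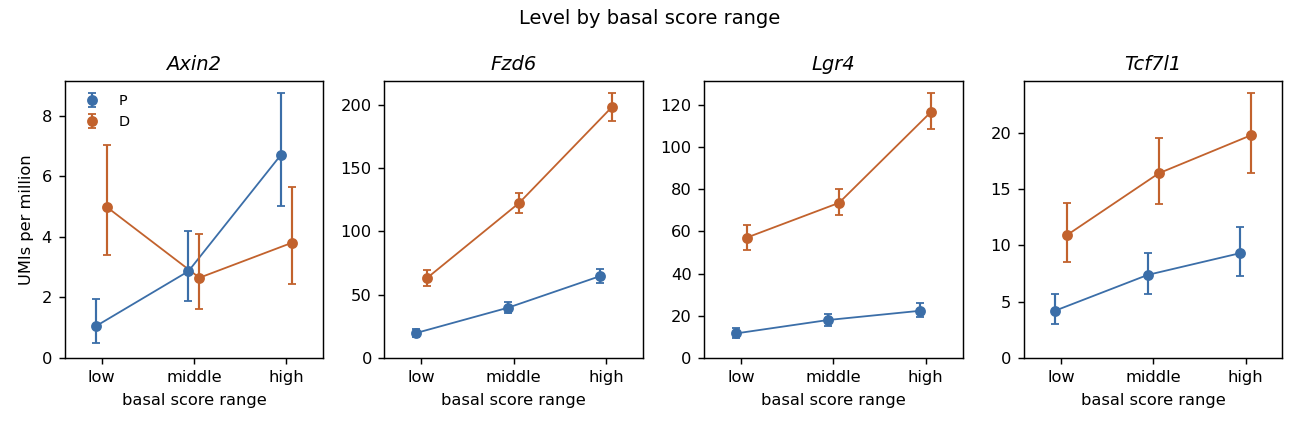
Level of Axin2, Fzd6, Lgr4 and Tcf7l1 in the lower, middle and upper basal score ranges of P (blue) and D (orange), in CPM from 0, with exact Poisson 95% intervals. The lines of Axin2 cross (1.05 to 6.70 in P, 4.97 to 3.80 in D), whereas the lines of the other 3 genes stay apart.

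Other genes of the pathway give the frame for these values. Of 16 other receptors and co-receptors, 13 had at least 100 UMIs, and Fzd1 (2.25-fold), Fzd2 (3.29-fold), Fzd3 (4.16-fold) and Fzd5 (2.96-fold) stood at least 2-fold higher in D, with 0 at least 2-fold lower, beside the 13.5% and 4.73% of all genes. With the median shift removed, Fzd1 fell short (0.75 on the log2 scale) and 3 of the 13 remained past 2-fold, beside 5.64% of all genes. Fzd7 stood at 18.4 CPM in P and 36.1 CPM in D, a ratio of 1.97. Of 12 transducers of the destruction complex and its neighbours, only Apc passed (2.28-fold), beside the same 13.5% of all genes. With the median shift removed it did not (0.77 on the log2 scale), which left 0. Pygo2, Tle2 and Ctbp1 passed among 10 nuclear cofactors with enough UMIs (2.04-, 3.31- and 2.03-fold), beside 13.5% of all genes. With the shift removed, Pygo2 (0.61 on the log2 scale) and Ctbp1 (0.60) fell short, and Tle2 alone of the 10 remained, beside 5.64% of all genes. Among 16 secreted and membrane antagonists only Kremen1 had 100 UMIs, and it did not pass (1.53-fold). Notum, Sfrp2 and Dkk3 had enough UMIs for a ratio but too few for a call. Notum had 41 UMIs in P and 2 in D, a ratio of 0.0641 (0.00751 to 0.247). Sfrp2 went the other way, with 0 UMIs in P and 41 in D. Dkk3 had 35 UMIs in P and 37 in D, a ratio of 1.39 (0.851 to 2.27).

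Widely used β-catenin targets other than the members went in both directions. Of the 10 with at least 100 UMIs, Mmp7 (5.55 and 35.0 CPM in P and D), Sox9 (22.0 and 73.3), Ccnd2 (246 and 517), Tnfrsf19 (2.32 and 5.81) and Bambi (1.99 and 4.14) were at least 2-fold higher in D. Over all genes that share was 13.5%, and 5.64% with the median shift removed. With the median shift removed, Mmp7 and Sox9 remained past 2-fold, while Ccnd2 (0.65 on the log2 scale), Tnfrsf19 (0.90) and Bambi (0.64) fell short. Ccnd1 (131 and 22.8 CPM) and Myc (30.0 and 11.0 CPM), regulators of cell growth and division, were at least 2-fold lower under both scalings. The shares of all genes at least 2-fold lower were 4.73% on the CPM scale and 8.65% with the shift removed. Cycling cells made up 4.88% of thinned cells in P and 0.475% in D, and their part in the ratios of Ccnd1 and Myc was not tested. Both were lower in D in both sets of clusters. For Ccnd1 the log2 ratio was -1.95 in D1 over P0 and P3 and -2.63 in D0 and D2 over P1 and P2, and for Myc it was -0.75 and -1.67. Axin2, which was lower in the first of these comparisons and higher in the second, thus did not follow Ccnd1 and Myc in the second. Ratios by set of clusters are not given here for the targets that were higher in D.

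**Figure D5:**
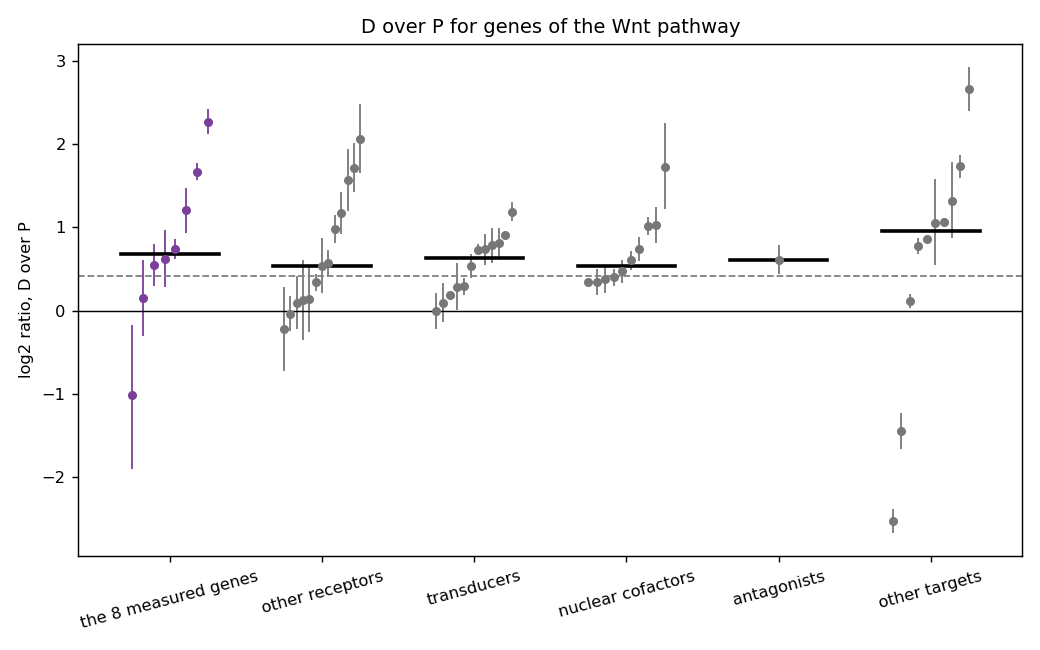
log2 ratio of D to P for the 8 members (purple, at least 20 UMIs) and for other genes of the pathway with at least 100 UMIs (grey), with 95% intervals from the counts, black bars at the median of each list and a dashed line at the median-ratio shift of 0.42. The medians lie between 0.54 and 0.96, Lgr4 is at 2.27, and Ccnd1 at -2.53 is the lowest point.

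The genes most like each member were sought by the correlation of log2(CPM + 1) over the 7 clusters, among 10708 genes. Clusters of a library share depth and composition, so that these values describe 7 points only. The closest to Axin2 were Cxcl1 (Pearson's r = 0.95), Xxylt1 and Tmem241. Lgr4 was most like 2900026A02Rik, Nbdy and Ric8b (r of at least 0.9958), Fzd6 like Phf20l1, Cnot8 and Clca3a2, and Tcf7l2 like Ldlrad3, Ythdc1 and Tug1. For Rnf43 they were B4galt7, Mtss1 and Ext1, for Znrf3 Helz, Fam171a1 and Tor2a, and for Tcf7l1 Commd1, Parp11 and Cat. None of the closest genes to a member was another member. Only the few closest of 10708 genes were listed, so that this cannot show whether the members varied together.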

How the data were processed

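Per the labels and the study's methods, the authors prepared 3′ libraries with the 10x Genomics v3 chemistry and processed the reads with bcl2fastq 2.19.0 and Cell Ranger 3.0.2 against GRCm38/mm10. The deposited matrices hold UMI counts per gene and barcode, as whole numbers without normalization. Here cells with over 800 genes and at most 12% mitochondrial UMIs were kept, and UMIs were summed per library or cluster and expressed per 1000000. Levels carry exact Poisson intervals, ratios exact conditional binomial intervals and shares exact Clopper-Pearson intervals, all at 95%. A ratio needed 20 UMIs over both sides, and a call of 2-fold needed 100. The interval of a difference between ratios is a Wald interval on the counts. Median-ratio scaling was taken from the median log2 ratio of well-counted genes. Cells were clustered with Seurat 5.3.0 (R 4.3.3; 2000 variable features less the members, 25 principal components in P and 21 in D, Louvain resolution 0.2), and doublets were kept. Scrublet's own threshold marked 0 cells in each library and is therefore not taken as evidence that there were none. The ratio and its interval were tested on simulated data for D over P, where the interval held the true ratio for 95.5% of 10231 unchanged genes. For changed genes, 50 at each fold, it held the true ratio for 94% to 100%. The simulated counts were Poisson draws, the model on which the interval rests, without spread between cells or cultures. This checked the computation only and cannot show that the intervals hold for these data. Other computations used Python 3.11.15, scipy 1.17.1 and scanpy 1.11.5.

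All 10 members were named. Of the pathway lists, genes with at least 100 UMIs and a 2-fold ratio were named. Fzd7, Kremen1, Axin1, Lgr5, Notum, Sfrp2 and Dkk3 fall outside that rule and were chosen after their values were seen. The members, lists and comparisons were chosen with earlier results of these data known. Gene positions are those of GENCODE vM21, in which 31011 of 31053 identifiers were found.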

Additional observations from a re-analysis of the deposited data

Results flagged for a closer look

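Axin2 was picked out because the point values of the same contrast had opposite signs in the libraries. For clusters with raised basal markers over the rest, P gave 2.004 on the log2 scale (1.34 to 2.70) and D gave -0.0447 (-0.97 to 0.79). The interval of D held 0, so that the sign in D was not settled. The difference of these ratios, D less P, was -2.05 (-3.09 to -1.01, counting error only). This difference rests on 1 library per medium, on 90 UMIs of P and 76 of D, and it was not tested across cultures.

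Znrf3 was picked out by the same comparison of signs, where P gave 0.41 on the log2 scale and D gave -0.0554. The interval of its difference, -0.46 (-1.21 to 0.29), held 0.

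The barcodes left out by the cell filter also held member transcripts. In P, 1376 such barcodes held 358 member UMIs, or 179.7 per 1000000 non-mitochondrial UMIs (161.6 to 199.3), against 129.3 in kept cells (124.9 to 133.8). In D, 2079 left-out barcodes held 1342 member UMIs, or 647.7 per 1000000 (613.5 to 683.3), against 338.9 in kept cells (330.7 to 347.3). These values were picked out because they come from data outside the comparisons, and the cause was not tested. In the left-out barcodes of D, Lgr4 had 340 UMIs and Fzd6 511. With a looser filter, over 500 genes and at most 20% mitochondrial UMIs, the same number of members, 3, was at least 2-fold higher in D. The share of all genes under that filter is not given here.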

How the results depend on the processing

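With 1 library per medium, culture and medium cannot be told apart, and no value has a replicate check. Depth limits Axin2, Tcf7, Lgr6 and Lef1 most. The count of 3 members at least 2-fold higher in D was 3 under both other cell filters, with each cell weighted equally, without the 6% of cells of highest doublet score and without cells with a stromal marker UMI, an alternative chosen after seeing the data, and 2 under either other scaling. The count lower in D was 0 under all of these. For these counts and those below, shares of all genes are given only on the CPM scale and with median-ratio scaling, in the kept cells. The median log2 ratio of 0.68 was 0.35 without mitochondrial and ribosomal protein genes and 0.26 with median-ratio scaling. Within the clusters of raised basal markers it was 0.98, and 0.59 and 0.49 under these scalings. The count of 2 members at least 2-fold higher in such clusters of P was 0 at resolution 0.4, 1 in the upper range of the basal score, 1 without the cycling cluster, 1 without cells with a stromal marker UMI and 1 with median-ratio scaling, added after seeing the data for these comparisons. The count of 2 in D was 1 in the upper score range and 1 with that scaling. Outside these clusters the median of 0.999 moved by less than its counting interval under each alternative. Median-ratio scaling still took 0.43 off each log2 ratio of that comparison, and so off this median as well. The causes were not tested. No paired analysis was possible because each group held 1 library.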
